A study of Mus musculus with 12 samples.

Results

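The 2 wild-type lines of mouse embryonic fibroblasts were compared with each other: 4 libraries of WT line 2 against 4 libraries of WT line 1, which is 8 of the 12 libraries of the series. Libraries were taken by their titles, which call the lines clone 1 and clone 2 and number 4 experiments in each. Among the column headers of the counts, 1 of WT line 2 spells the word without its last letter. Fibroblasts of both lines were wild type for p27, the inhibitor of cyclin-dependent kinases encoded by Cdkn1b, and had been immortalised with the papillomavirus protein E6, which directs p53 to degradation in human cells. They were grown for 24 h in DMEM with 10% fetal bovine serum before total RNA was taken. The remaining 4 libraries came from 1 p27-null line of fibroblasts, also immortalised with E6 and grown in the same way, and they entered the fit and served as a point of comparison for single genes. The sources used here give neither the part of the embryo that each line was made from nor the age or sex of the embryos. Whether the 4 experiments of a line were separate cultures is not stated. The p-values thus rest on the variation among these libraries, which may be technical, and each line stands for itself alone.

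Fibroblasts keep a record of where in the body they arose. Hox genes, which lie in 4 clusters called HoxA to HoxD, are switched on in order along the trunk and limbs and stay silent in most of the mesenchyme that the cranial neural crest gives to the face. There, and in parts of the limb and body wall, other transcription factors such as the Alx, Lhx, Msx, Pax and Tbx families mark position. In culture these patterns can persist over many divisions.

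The 4 genes shown here were chosen for printing because each is a position factor close to silent in one line: Lhx8 and Hand2, read almost only in WT line 2, and Hoxa7 and Zic1, read almost only in WT line 1. Their windows from 250 bases before to 50 bases after the transcription start, from RefSeq on build GRCm38.p6, are shown in lower case with each CG dinucleotide in capitals. Hoxb9, Alx1 and Pax3 are named only.
Lhx8 promoter, − strand, chr3:154330511-154330810: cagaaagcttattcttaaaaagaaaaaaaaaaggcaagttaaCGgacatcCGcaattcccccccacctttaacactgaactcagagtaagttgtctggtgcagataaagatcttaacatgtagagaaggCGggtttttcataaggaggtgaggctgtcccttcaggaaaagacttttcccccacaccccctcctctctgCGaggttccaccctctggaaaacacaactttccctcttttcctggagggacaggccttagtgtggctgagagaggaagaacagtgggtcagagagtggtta
Hand2 promoter, + strand, chr8:57320733-57321032: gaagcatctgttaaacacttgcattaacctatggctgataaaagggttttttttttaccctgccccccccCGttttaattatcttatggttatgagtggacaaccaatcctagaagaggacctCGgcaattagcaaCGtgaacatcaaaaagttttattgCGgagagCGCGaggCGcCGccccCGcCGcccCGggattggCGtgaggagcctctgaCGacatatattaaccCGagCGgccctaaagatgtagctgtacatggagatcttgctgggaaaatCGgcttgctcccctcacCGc
Hoxa7 promoter, − strand, chr6:52218524-52218823: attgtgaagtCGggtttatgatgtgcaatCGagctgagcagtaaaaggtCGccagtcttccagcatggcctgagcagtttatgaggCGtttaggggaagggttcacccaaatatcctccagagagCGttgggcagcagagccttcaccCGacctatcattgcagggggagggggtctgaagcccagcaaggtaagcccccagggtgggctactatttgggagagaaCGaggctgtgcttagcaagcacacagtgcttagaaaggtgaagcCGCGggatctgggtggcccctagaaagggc
Zic1 promoter, − strand, chr9:91365719-91366018: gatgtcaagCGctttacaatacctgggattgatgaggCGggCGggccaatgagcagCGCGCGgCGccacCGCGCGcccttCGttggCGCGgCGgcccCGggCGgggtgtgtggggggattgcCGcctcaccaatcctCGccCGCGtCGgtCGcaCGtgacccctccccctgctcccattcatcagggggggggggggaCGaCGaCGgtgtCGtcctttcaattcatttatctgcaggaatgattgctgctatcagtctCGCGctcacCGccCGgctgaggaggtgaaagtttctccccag
CG, which reads the same on both strands and cannot overlap itself, occurred 4 times in the Lhx8 window, 17 times in Hand2, 9 times in Hoxa7 and 31 times in Zic1, beside a median of 7 in the 32851 windows of the table. At least as many were held by 68.6% of all windows for Lhx8, 31.4% for Hand2, 45.8% for Hoxa7 and 10.6% for Zic1. The homeodomain word TAATTA, also its own reverse complement, was found 1 time in the Hand2 window and in none of the other three, and 5.29% of all windows held it. Genes read in one line had windows both rich and poor in CG.

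Depth, as the total count over genes with a name, was 17.2 to 23.98 M in libraries of WT line 2 and 15.4 to 19.1 M in those of WT line 1. Within each line, counts of any 2 libraries differed by more than sampling noise. Over the 8 libraries the first principal component of log2 CPM (counts scaled to 1 M per library) carried 81.1% of the variance and held the lines apart. Experiment 1 of WT line 1 stood off on the second component, which carried 7.07%, and had the lowest mitochondrial share of counts of the 8 libraries (1.33%, against 1.74 to 3.09% in WT line 2 and 1.86 to 2.43% in the other libraries of WT line 1). The median SD of log2 CPM within a line was 0.163 in WT line 2 and 0.198 in WT line 1. It was 0.142 in WT line 1 without experiment 1. Cdkn1b did not pass the test (98.6 ± 14.4 CPM in WT line 2 and 92.3 ± 6.07 CPM in WT line 1). Xist, the RNA that coats the inactive X, was read at 739.8 ± 139 CPM in WT line 2 and 716 ± 249 CPM in WT line 1 and did not pass either, and the 4 Y genes tested had means of at most 0.0628 CPM in both lines. Of 12 fibroblast markers, 10 were in the table and none was below 1 CPM in either line. In WT line 2, 6 of them rose and 1 fell, beside 20.7% and 21.9% of all genes tested.

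Of 14392 genes tested with edgeR's quasi-likelihood test, 6133 passed an adjusted p of 0.05, which is 42.6%. In WT line 2, 2981 genes (20.7%) were higher and 3152 (21.9%) lower than in WT line 1. Among them 781 (5.43%) were at least 2-fold higher and 1220 (8.48%) at least 2-fold lower. All 4 libraries of WT line 2 lay above all 4 of WT line 1 for 2944 genes (20.5%) and below them for 2934 (20.4%). With experiment 1 of WT line 1 left out, 6013 genes passed. The median log2 fold change over all genes tested was 0.02, WT line 2 over WT line 1, as are all fold changes here. CPM are counts per 1 M counts in genes with a name, after TMM scaling, and means are given ± SD over 4 libraries of a line.

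Genes of the HoxA and HoxB clusters were close to silent in WT line 2 and read in WT line 1, Hoxa9 only at a low level. All 8 HoxA genes and all 8 HoxB genes tested fell in WT line 2, against 21.9% of all genes. None had overlap between libraries of the lines, and 20.4% of all genes lay wholly below in WT line 2. The median log2 fold change was -8.02 over HoxA genes and -8.08 over HoxB genes. It was -6.48 and -7.67 with the 4 HoxA and 2 HoxB genes that had 0 counts in WT line 2 set at the bound that 3 counts over the 4 libraries allow. Hox proteins are homeodomain transcription factors, and those of higher number act further towards the tail.

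Hoxa7, a gene of the thoracic trunk, had 0 counts in all 4 libraries of WT line 2, against 17.8, 15.3, 12.1 and 17.998 CPM in WT line 1, and was at least 406-fold lower in WT line 2 by that bound (adjusted p = 2.7e-08). Hoxa4, Hoxa6 and Hoxa9 were also at 0 counts in WT line 2 and averaged 2.46, 2.36 and 0.696 CPM in WT line 1. Hoxa9 passed the filter on low counts through the p27-null line (4.14 CPM), and a fit of the 8 wild-type libraries alone did not test it. Hoxa5, needed for the lung and the cervical skeleton, had 1 count in WT line 2 and 13.2 ± 0.995 CPM in WT line 1, a ratio of WT line 1 over WT line 2 of 1019 (exact 95% interval 182 to 40296). Hoxa3, a patterning gene of the pharyngeal arches, averaged 0.0386 ± 0.0532 CPM in WT line 2 and 9.03 ± 1.06 CPM in WT line 1. Hoxa2, which gives the second pharyngeal arch its identity, averaged 0.0558 ± 0.0782 CPM in WT line 2 and 7.41 ± 0.316 CPM in WT line 1.

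Hoxb9, a thoracic gene, had 0.0415, 0.0571, 0.332 and 0.508 CPM in WT line 2, against 53.4, 51.1, 49.2 and 41.6 CPM in WT line 1 (log2 fold change -7.74 ± 0.36 SE, adjusted p = 4.9e-09). Every library of WT line 1 lay above every library of WT line 2. Hoxb4, an anterior gene known for its use in blood stem cells, had 0.166, 0, 0 and 0.282 CPM in WT line 2, against 18.8, 16.5, 18.4 and 18.6 CPM in WT line 1 (log2 fold change -7.20 ± 0.37 SE, adjusted p = 1.1e-08). Hoxb3 and Hoxb5 had 0 counts in WT line 2 and averaged 7.899 and 4.28 CPM in WT line 1. Hoxb2, Hoxb6, Hoxb7 and Hoxb8 averaged 0.0141, 0.0281, 0.0138 and 0.0978 CPM in WT line 2, against 4.02, 14.7, 6.74 and 12.9 CPM in WT line 1. Genes beside both clusters were lower too. On chromosome 6 of GRCm39, 13 adjacent tested genes from Skap2 at base 51831208 to Hoxa9 at base 52208069 were each at least 2-fold lower, and on chromosome 11 the same held for 11 adjacent genes from Hoxb9 at base 96162150 to Skap1 at base 96650447. Chromosome 11 as a whole had a median log2 fold change of -0.28, and its part in the HoxB values was not tested.

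HoxC and HoxD genes were nearly silent in both lines, with 1 exception each. Hoxc4, Hoxc5, Hoxc6 and Hoxc8 averaged 0.0418, 0.0141, 0.0942 and 0.122 CPM in WT line 2, against 0.324, 0.434, 0.687 and 0.679 CPM in WT line 1, and all 4 fell. They passed the filter on low counts through the p27-null line, where they averaged 8.36, 10.2, 14.2 and 3.45 CPM, and a fit of the 8 wild-type libraries alone did not test them. Hoxc13, a gene of the tail end of the body axis and of hair and nail, went the other way. It had 2.12, 1.999, 3.04 and 3.95 CPM in WT line 2, against 0.0520, 0, 0.0531 and 0.0625 CPM in WT line 1, or 211 counts against 3. The ratio was 65.4 (exact 95% interval 22.1 to 319.8, counting error only). Hoxd8 was the 1 HoxD gene tested, with 0.332, 0.114, 0.608 and 0.508 CPM in WT line 2, against 8.27, 8.29, 10.5 and 7.25 CPM in WT line 1 (log2 fold change -4.44 ± 0.31 SE, adjusted p = 1.4e-07).

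**Figure D1:**
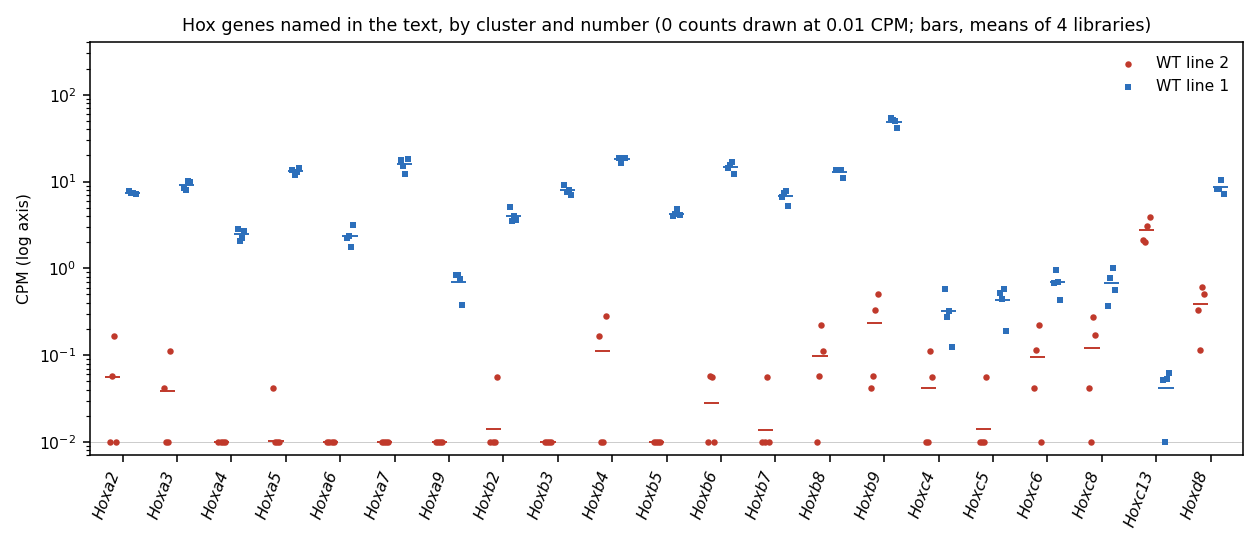
CPM of the Hox genes named in the text, on a log axis, with WT line 2 (circles) left of WT line 1 (squares) for each gene, 1 point per library, bars at the mean of 4 libraries and 0 counts drawn at 0.01 CPM. All HoxA and HoxB genes drawn sit lower in WT line 2, where the highest mean is 0.235 CPM for Hoxb9, and Hoxc13 alone sits higher, at 2.78 CPM against 0.0419 CPM.

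Partners of Hox proteins changed far less. Of 17 Pbx, Meis and Pknox cofactors and Polycomb or Trithorax genes, 2 rose and 8 fell, beside 20.7% and 21.9% of all genes. The median log2 fold change was -0.26. Meis1, which binds DNA with Hox proteins, averaged 16.3 ± 1.08 CPM in WT line 2 and 30.2 ± 3.68 CPM in WT line 1 (log2 fold change -0.89 ± 0.12 SE, adjusted p = 6.6e-05). Pknox2, a cofactor, and Cbx2, a Polycomb subunit that reads methylated histones, had log2 fold changes of -1.31 and -1.17, whereas Pbx2 rose (log2 fold change 0.73). Suz12 and Eed, core parts of the Polycomb complex that keeps Hox clusters silent, did not pass (-0.10 and -0.22). Another core part of that complex on this list was among the 8 that fell.

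WT line 2 read the transcription factors of facial mesenchyme and neural crest. Of 22 such factors tested, 16 rose and 4 fell, beside 20.7% and 21.9% of all genes, with a median log2 fold change of 1.39. With 1 library left out in turn, 15 or 16 rose and 3 or 4 fell. Alx1, a homeobox gene needed for the frontonasal skeleton, had 58.5, 56.5, 51.2 and 50.5 CPM in WT line 2, against 0, 0, 0.106 and 0 CPM in WT line 1. That was 4222 counts against 2, a ratio of 1964 (exact 95% interval 543 to 16219.8). Lhx8, a LIM-homeobox gene of the palate, tooth-forming mesenchyme and basal forebrain, had 104, 102, 108 and 91.4 CPM in WT line 2, against 0.104, 0.167, 0.106 and 0 CPM in WT line 1 (log2 fold change 9.93 ± 0.25 SE, adjusted p = 2.4e-11). Pax3, a paired-box gene of dorsal neural tube, neural crest and somite, had 52.1, 64.99, 46.5 and 56.4 CPM in WT line 2, against 0.0520, 0.278, 0.159 and 0.0625 CPM in WT line 1 (log2 fold change 8.56 ± 0.29 SE, adjusted p = 2.8e-10). The 3 genes lay on chromosomes 10, 3 and 1.

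Hand2, which patterns the lower jaw, the limb and the heart, had 61.004, 70.8, 64.9 and 53.8 CPM in WT line 2, against 0.520, 0.111, 0.372 and 0.125 CPM in WT line 1 (log2 fold change 7.72 ± 0.27 SE, adjusted p = 1.1e-08). Its divergent non-coding neighbour Hand2os1 averaged 58.7 ± 14.9 CPM in WT line 2 and 0.109 ± 0.0383 CPM in WT line 1. Hand2os1, Hand2, Gm34030 and Hdnr formed a run of 4 adjacent tested genes on chromosome 8 of GRCm39, bases 57734152 to 57868145, each at least 2-fold higher, with a median of 7.56. The strand setting of the counting is not given, so reads of overlapping genes there cannot be told apart. That run stood out from its chromosome, whose genes were lower as a whole in WT line 2.

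Msx1, a homeobox gene of tooth, palate and limb margins, had 99.99, 90.6, 103.4 and 82.7 CPM in WT line 2, against 4.06, 2.22, 2.28 and 2.69 CPM in WT line 1 (log2 fold change 5.06 ± 0.22 SE, adjusted p = 3.0e-09). Alx4, close kin of Alx1, had 73.8, 83.6, 74.5 and 63.5 CPM in WT line 2, against 4.996, 2.67, 3.56 and 0.687 CPM in WT line 1 (log2 fold change 4.60 ± 0.33 SE, adjusted p = 1.8e-07). Twist1, the factor mutated in a human craniosynostosis, had 189, 204, 199.6 and 174 CPM in WT line 2, against 70.5, 46.7, 57.5 and 51.5 CPM in WT line 1 (log2 fold change 1.76 ± 0.13 SE, adjusted p = 2.0e-07). None of these groups overlapped. Gsc and Foxf2, factors of jaw and palate, rose (log2 fold changes 5.29 and 3.41), though Gsc averaged only 3.51 CPM in WT line 2 and 0.0809 CPM in WT line 1. Prrx1 and Prrx2, general markers of limb and facial mesenchyme, were read in both lines and rose (log2 fold changes 0.72 and 1.31). Dlx2, Dlx5 and Lhx6, of the pharyngeal arches, rose (log2 fold changes 1.05, 1.48 and 0.73).

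The face and arch list had its exceptions. Tbx1, the T-box gene of the pharyngeal mesoderm and endoderm, had 0.124, 0.114, 0.166 and 0.226 CPM in WT line 2, against 13.8, 10.8, 9.14 and 14.7 CPM in WT line 1 (log2 fold change -6.22 ± 0.34 SE, adjusted p = 1.8e-08). Foxd1, of head mesenchyme and kidney stroma, fell (log2 fold change -1.14). Pax9, of tooth, palate and sclerotome, passed at a log2 fold change of -0.53 and kept its call with only 1 of the 8 libraries left out, experiment 2 of WT line 1, with adjusted p up to 0.145 without the others.

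Zic1, Sim1, Nkx3-2 and Pax1, factors of somite and sclerotome, were read in WT line 1 and had at most 1 count each in WT line 2. Zic1, a zinc-finger gene of dorsal somite and neural tube, had 0, 0, 0.0553 and 0 CPM in WT line 2, against 34.7, 33.6, 33.7 and 32.7 CPM in WT line 1. That was 1 count against 2430, a ratio of WT line 1 over WT line 2 of 2612 (exact 95% interval 468 to 103224). Sim1, a basic helix-loop-helix factor of lateral somite and hypothalamus, had 0 counts in WT line 2 and 3.12, 11.2, 11.9 and 8.81 CPM in WT line 1, and was at least 224-fold lower in WT line 2. Nkx3-2 and Pax1, which drive sclerotome towards vertebral cartilage, had 1 count each in WT line 2 and averaged 15.7 ± 2.73 CPM and 1.35 ± 0.379 CPM in WT line 1. All 4 also had 0 counts in the p27-null line. Other factors of these tissues had other patterns. Pax3 was read in WT line 2 and close to silent in WT line 1. Pax9 was read in both lines, at 10.4 CPM in WT line 2 and 15.03 CPM in WT line 1. Meox1, of somites, was under 1 CPM in both lines and did not pass (0.215 CPM in WT line 2 and 0.445 CPM in WT line 1). It met the filter on low counts only through the p27-null line (32.8 CPM), so its lack of a call says little about the wild-type lines.

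Across the 15 limb, body wall and somite factors tested, 4 rose, near the 20.7% of all genes, and 7 fell, beside 21.9%. The median log2 fold change was -0.32. The 4 that rose were Tbx3, Shox2, Tbx18 and En1. Tbx3, a T-box gene of limb, mammary gland and heart, had 101, 114, 94.5 and 95.6 CPM in WT line 2, against 9.58, 7.45, 9.99 and 7.19 CPM in WT line 1 (log2 fold change 3.56 ± 0.12 SE, adjusted p = 2.8e-10). Shox2, of proximal limb, palate and sinus node, had 133, 154, 115 and 123 CPM in WT line 2, against 18.1, 31.9, 34.1 and 25.9 CPM in WT line 1 (log2 fold change 2.25 ± 0.20 SE, adjusted p = 1.3e-06). Tbx18 and En1 rose (log2 fold changes 1.09 and 1.05). Besides the somite genes, Irx3, Tbx15 and Irx2 fell (log2 fold changes -2.25, -0.98 and -0.32). Irx1, Irx5 and Emx2 were read in both lines and did not pass, at log2 fold changes of 0.09, 0.19 and 0.13, although Irx5 had an adjusted p of 0.0382 with the experiment number as a block.

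Factors of viscera, heart and lateral plate split in the same way. Of 14, 4 were higher, near the 20.7% of all genes, and 7 lower, beside 21.9%, with a median of -0.49. Some members counted here, low in both wild-type lines, passed the filter on low counts only through the p27-null line. Gata6, a zinc-finger factor of heart, gut and lateral mesoderm, had 0.0829, 0, 0.0553 and 0 CPM in WT line 2, against 31.7, 25.97, 24.2 and 30.9 CPM in WT line 1. The ratio of WT line 1 over WT line 2 was 726 (exact 95% interval 248 to 3522). Nkx2-5, the cardiac homeobox gene, averaged 0.0631 ± 0.0809 CPM in WT line 2 and 6.43 ± 1.58 CPM in WT line 1. Nr2f1, a nuclear receptor, had 2.12, 1.37, 1.49 and 2.26 CPM in WT line 2, against 23.4, 20.9, 17.4 and 29.8 CPM in WT line 1 (log2 fold change -3.65 ± 0.23 SE, adjusted p = 5.1e-08). Foxc2, of paraxial and vascular mesenchyme, averaged 11.03 ± 1.78 CPM in WT line 2 and 71.7 ± 12.8 CPM in WT line 1 (log2 fold change -2.70 ± 0.16 SE, adjusted p = 3.3e-08). Mab21l2 and Mab21l1, genes of eye, body wall and craniofacial development, went the other way. Mab21l2 had 28.5, 31.1, 23.005 and 23.2 CPM in WT line 2, against 0.104, 0.0556, 0.0531 and 0.125 CPM in WT line 1 (log2 fold change 8.20 ± 0.26 SE, adjusted p = 2.0e-10), and Mab21l1 rose (log2 fold change 5.64). Osr1 and Osr2, related zinc-finger factors, rose (log2 fold changes 1.64 and 1.65).

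**Figure D2:**
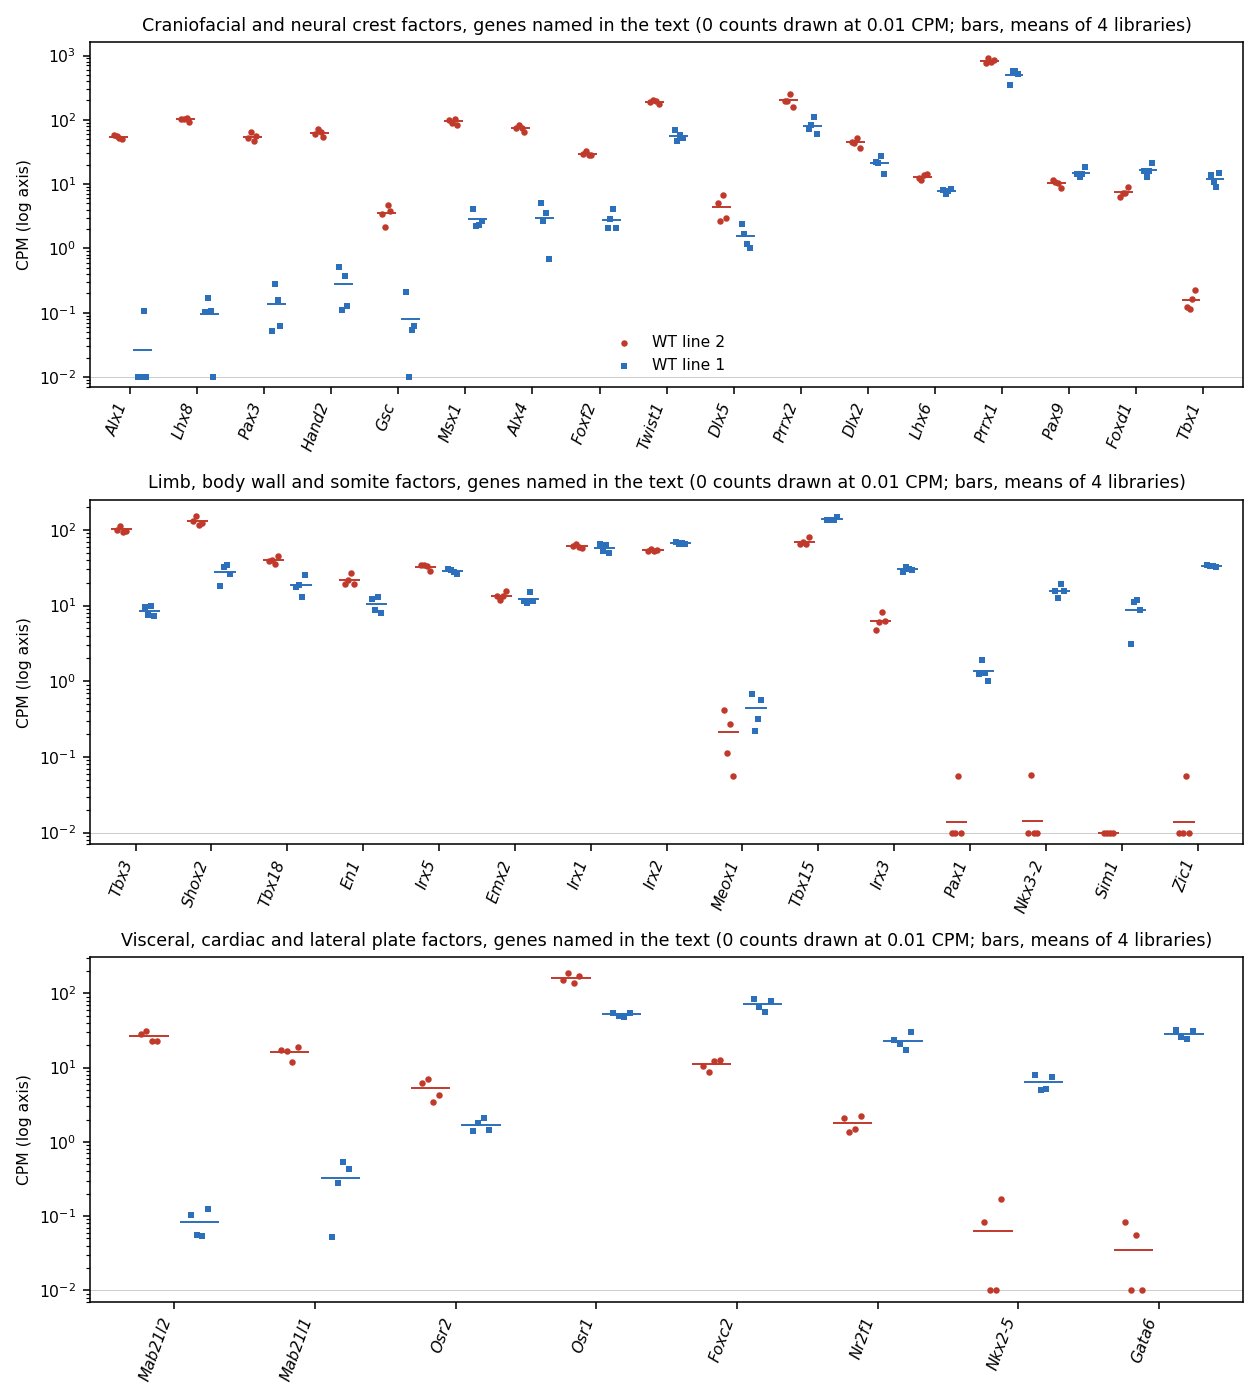
CPM of the members named in the text of the 3 lists of position factors, on log axes, 1 point per library, WT line 2 (circles) left of WT line 1 (squares), ordered by log2 fold change, bars at the mean of 4 libraries, 0 counts drawn at 0.01 CPM. Alx1, at 54.2 CPM against 0.0266 CPM, and Zic1, at 0.0138 CPM against 33.7 CPM, mark the ends of the 2 opposed patterns.

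The p27-null line had some of each pattern, which the values show without a test, since its comparisons share libraries with this one. Hoxa7 averaged 18.1 CPM and Hoxb9 22.1 CPM in the p27-null line, above every library of WT line 2. Alx1 averaged 35.3 CPM, Pax3 69.7 CPM, Alx4 83.3 CPM and Tbx3 39.6 CPM there, above every library of WT line 1. Lhx8 (0.0164 CPM) and Hand2 (0 CPM) were read almost only in WT line 2 among the 3 lines, and Zic1, Sim1 and Nkx3-2 had at most 1 count outside WT line 1.

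Over all genes that passed, 8 averaged at least 5 CPM in WT line 2 and under 0.1 CPM in WT line 1, 3 of them on the lists of position factors. The opposite held for 36 genes, 13 of them on the Hox or position factor lists. Genes described next were not chosen by that limit, and Lepr, Tnn, Vat1l and Smoc1 averaged above 0.1 CPM in their lower line. Lepr, the leptin receptor and a marker of marrow stromal cells, had 161, 271, 203 and 218 CPM in WT line 2, against 0, 0.111, 0.372 and 0.0625 CPM in WT line 1 (log2 fold change 10.52 ± 0.73 SE, adjusted p = 1.4e-07). Tnn, the matrix glycoprotein tenascin-N of bone and tooth, averaged 64.8 ± 34.3 CPM in WT line 2 and 0.101 ± 0.0771 CPM in WT line 1 (log2 fold change 9.28 ± 0.52 SE, adjusted p = 2.0e-08). Slc7a8, an amino acid transporter, averaged 19.5 ± 6.42 CPM in WT line 2 and 0.0133 ± 0.0266 CPM in WT line 1, a ratio of 1377 (exact 95% interval 247 to 54413), and Cxcl5, a neutrophil chemokine, averaged 22.1 ± 3.13 CPM in WT line 2 and 0.0933 ± 0.118 CPM in WT line 1. Vat1l averaged 96.4 ± 19.8 CPM in WT line 2 and 0.217 ± 0.0864 CPM in WT line 1. The transcriptional regulator Prdm6 and the transcript AI606473 were also among the 12 largest increases of genes with an official symbol, at 5.96 and 24.1 CPM in WT line 2 and 0.0130 and 0.0697 CPM in WT line 1.

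On the other side, Selp, the adhesion molecule P-selectin, had 0 counts in WT line 2 and 6.76 ± 2.24 CPM in WT line 1. Esm1, an endothelial proteoglycan, averaged 0.0388 ± 0.0268 CPM in WT line 2 and 26.5 ± 9.08 CPM in WT line 1. Smoc1, a BMP antagonist of limb and eye, averaged 0.109 ± 0.192 CPM in WT line 2 and 53.3 ± 11.1 CPM in WT line 1. Of 8 endothelial markers 4 were in the table, and their sum ran from 0.8294 to 1.94 CPM per library in WT line 2 and from 6.37 to 16.96 CPM in WT line 1. Kdr, a receptor of vascular endothelial growth factor, averaged 0.235 ± 0.150 CPM in WT line 2 and 9.68 ± 3.74 CPM in WT line 1 (log2 fold change -5.34 ± 0.49 SE, adjusted p = 1.6e-06), Tek was read at 0.0628 CPM in WT line 2 and 1.58 CPM in WT line 1, and Pecam1 and Vwf were below 1 CPM in both lines. Cdh5, Tie1, Emcn and Cldn5 were not in the table. The part of such cells in the Selp and Esm1 values was not tested.

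Among the strongest-read genes per kb of exon, Gpc3 stood out. This heparan sulphate proteoglycan, a brake on body growth encoded on the X chromosome, had 492, 494, 695 and 421 CPM in WT line 2, against 4.42, 5.12, 9.46 and 3.87 CPM in WT line 1 (log2 fold change 6.51 ± 0.30 SE, adjusted p = 4.0e-09). Grem1, a secreted BMP antagonist, had 1002, 1593, 1241 and 1553 CPM in WT line 2, against 55.9, 258, 209 and 196 CPM in WT line 1 (log2 fold change 2.91 ± 0.42 SE, adjusted p = 8.8e-05). Ltbp2, a microfibril protein, had 781, 846, 1518 and 869 CPM in WT line 2, against 92.2, 132, 215 and 106 CPM in WT line 1 (log2 fold change 2.88 ± 0.30 SE, adjusted p = 5.6e-06). Crabp1, Cav1, Csf1, Lgals3 and Lbh, the other most abundant genes that rose at least 2-fold, had log2 fold changes of 1.01, 1.099, 1.03, 1.01 and 1.65. In the other direction, Cd24a, a small surface glycoprotein, had 1.74, 1.26, 2.16 and 3.44 CPM in WT line 2, against 234, 247, 194 and 274 CPM in WT line 1 (log2 fold change -6.79 ± 0.25 SE, adjusted p = 6.8e-10). Thbs1, the matrix protein thrombospondin 1, averaged 2428 ± 968 CPM in WT line 2 and 6284 ± 1857 CPM in WT line 1 (log2 fold change -1.37 ± 0.31 SE, adjusted p = 0.00306). Fbln2, an elastic-fibre protein, averaged 636 ± 256 CPM in WT line 2 and 2879.8 ± 266 CPM in WT line 1 (log2 fold change -2.18 ± 0.23 SE, adjusted p = 5.6e-06). Fhl1, a LIM-domain protein of muscle, averaged 79.2 ± 40.99 CPM in WT line 2 and 644 ± 76.01 CPM in WT line 1 (log2 fold change -3.02 ± 0.32 SE, adjusted p = 5.3e-06). Ccn2, Cxcl12, Tnc and Spcs3 fell (log2 fold changes -1.99, -1.89, -1.105 and -1.92).

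Whole chromosomes also differed between the lines, mostly by small amounts. For each library, the median over a chromosome's genes of log2 CPM minus the mean of the 8 libraries was taken. The lines differed on 15 of 20 chromosomes (exact permutation test, two-sided, p = 0.0286, the smallest that 4 against 4 can give, adjusted p = 0.0381), and chromosomes 4, 6, 10, 13 and 19 did not pass. That test moves libraries freely between lines. With the experiment numbers as pairs, swaps within the 4 pairs allow no p below 0.125 (exact permutation test, two-sided), so no chromosome could pass. WT line 2 was lower by -0.41 on chromosome 7, -0.30 on chromosome 8 and -0.30 on chromosome 11 (differences WT line 2 minus WT line 1 on the log2 scale). It was higher by 0.36 on chromosome 14, 0.29 on chromosome 16, 0.24 on chromosome 12 and 0.18 on the X. Differences on the other chromosomes that passed were between -0.07 and 0.14. On chromosomes 7, 8 and 11, 51.9%, 43.8% and 43.2% of tested genes fell, and on chromosomes 14 and 16, 48.5% and 43.9% rose.

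The shift ran along these chromosomes. In bins of 10 Mb with at least 20 tested genes, the median log2 fold change was below 0 in 15 of 15 bins of chromosome 7, 12 of 12 of chromosome 8 and 12 of 12 of chromosome 11. It was above 0 in 11 of 11 bins of chromosome 12, 7 of 7 of chromosome 14 and 8 of 8 of chromosome 16. On chromosome 11 the bins lay between -0.34 and -0.22, on chromosome 14 between 0.26 and 0.59 and on chromosome 16 between 0.02 and 0.40. Chromosome 7 had a deeper stretch, with a median of -1.36 from 50 to 60 Mb and -0.86 from 60 to 70 Mb. There, 10 adjacent tested genes from base 51505333 to 55884371, among them Gas2, Cyfip1, Nipa1, Nipa2 and Herc2, were each at least 2-fold lower, as were 10 adjacent genes from base 66870774 to 68012840, among them Mef2a, Synm and Igf1r. Igf1r, the receptor of insulin-like growth factor 1, had 201, 209, 254 and 252 CPM in WT line 2, against 759, 709, 808 and 791 CPM in WT line 1 (log2 fold change -1.74 ± 0.10 SE, adjusted p = 3.3e-08). Herc2, a large ubiquitin ligase, had 116, 131, 135 and 135 CPM in WT line 2, against 303, 290.2, 319 and 351 CPM in WT line 1 (log2 fold change -1.29 ± 0.09 SE, adjusted p = 1.4e-07). Among genes that did not pass between the lines, chromosome medians differed by up to 0.135 in size and no chromosome passed; that choice of genes removes the larger differences by construction.

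**Figure D3:**
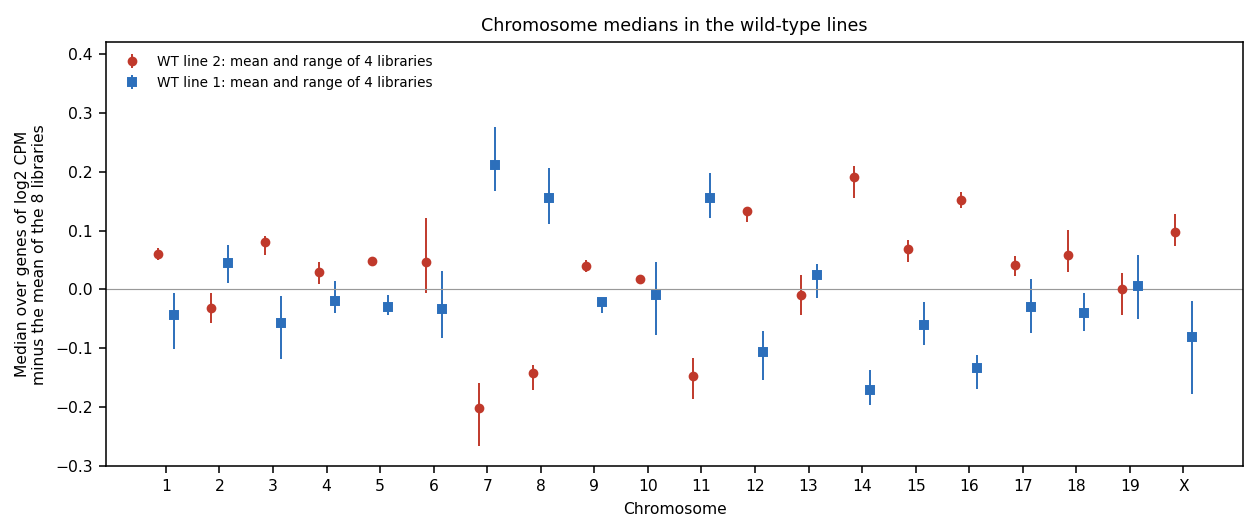
Median over the genes of each chromosome of log2 CPM minus the mean of the 8 libraries, as the mean and range of 4 libraries of WT line 2 (circles, left) and WT line 1 (squares, right). Chromosomes 7, 8 and 11 lie lower, and 12, 14, 16 and the X higher, in WT line 2, without overlap.

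Secreted signals and their receptors differed in both directions. The shares of all genes that rose and fell, 20.7% and 21.9%, are the background for the counts that follow. Of 10 Hedgehog pathway genes, 7 rose and 0 fell (median 0.49, beside 0.02 over all genes). The coreceptor Boc averaged 61.1 ± 18.9 CPM in WT line 2 and 16.6 ± 3.2997 CPM in WT line 1, and the related coreceptor Cdon averaged 131 ± 5.29 CPM in WT line 2 and 42.4 ± 6.28 CPM in WT line 1. Gli1, a target of the pathway as well as its effector, averaged only 2.06 ± 0.691 CPM in WT line 2 and 0.676 ± 0.252 CPM in WT line 1 (log2 fold change 1.63 ± 0.34 SE, adjusted p = 0.00180). Smo, Ptch1 and Gli3 rose (log2 fold changes 0.51, 0.47 and 0.46), whereas Gli2 did not pass (0.04). The ligands Shh and Ihh were not tested, being too low or not in the table.

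Of 12 retinoic acid genes 7 rose and 3 fell (median 0.70). Rarg, a retinoic acid receptor, had 274, 324, 276 and 263 CPM in WT line 2, against 70.98, 62.7, 84.6 and 71.7 CPM in WT line 1 (log2 fold change 1.97 ± 0.12 SE, adjusted p = 3.3e-08). The binding protein Crabp2 averaged 44.96 ± 6.62 CPM in WT line 2 and 7.14 ± 0.791 CPM in WT line 1 (log2 fold change 2.66 ± 0.16 SE, adjusted p = 3.3e-08). Dhrs3, an enzyme that lowers retinal and is itself induced by retinoic acid, averaged 26.3 ± 11.4 CPM in WT line 2 and 3.41 ± 2.01 CPM in WT line 1 (log2 fold change 2.94 ± 0.36 SE, adjusted p = 2.3e-05). Cyp26b1, which degrades retinoic acid, and Rdh10, which makes retinal, fell (log2 fold changes -0.89 and -0.85). Enzymes that degrade retinoic acid went both ways, as another of them on this list rose from a level under 0.1 CPM.

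In the Wnt list 12 of 32 rose and 7 fell (median 0.32), the lower calls at the share of all genes. Wnt5a, a non-canonical ligand of outgrowing tissues, had 383, 450.3, 453 and 367 CPM in WT line 2, against 69.9, 81.7, 88.5 and 45.99 CPM in WT line 1 (log2 fold change 2.53 ± 0.17 SE, adjusted p = 1.2e-07). Dkk3, a secreted protein of the Dickkopf family, averaged 123 ± 16.6 CPM in WT line 2 and 16.9 ± 4.14 CPM in WT line 1 (log2 fold change 2.85 ± 0.18 SE, adjusted p = 6.8e-08), although its chromosome 7 was lower as a whole. Rspo3, which enhances Wnt signals, averaged 0.533 ± 0.145 CPM in WT line 2 and 8.67 ± 1.67 CPM in WT line 1 (log2 fold change -4.03 ± 0.30 SE, adjusted p = 2.4e-07). Sfrp1, a Wnt antagonist, and Axin2, a common target, fell (log2 fold changes -2.72 and -1.61), and Lef1 and Nkd1 rose (log2 fold changes 0.77 and 3.21) from low levels (1.85 and 0.160 CPM in WT line 1).

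BMP genes rose in 11 cases and fell in 5 of 26 (median 0.07). Bmp4, a ligand, had 70.1, 71.5, 118.3 and 74.99 CPM in WT line 2, against 17.8, 17.1, 26.6 and 15.6 CPM in WT line 1 (log2 fold change 2.12 ± 0.23 SE, adjusted p = 7.7e-06). Antagonists moved both ways. Chrdl1, on the X, averaged 28.4 ± 10.2 CPM in WT line 2 and 0.374 ± 0.104 CPM in WT line 1 (log2 fold change 6.22 ± 0.37 SE, adjusted p = 3.3e-08), higher as Grem1 was. Fst, the activin-binding follistatin, averaged 2.06 ± 0.719 CPM in WT line 2 and 22.03 ± 2.84 CPM in WT line 1 (log2 fold change -3.42 ± 0.35 SE, adjusted p = 4.9e-06), and Chrd fell (log2 fold change -2.97). The receptor Bmpr1b averaged 2.47 ± 1.0996 CPM in WT line 2 and 22.96 ± 8.599 CPM in WT line 1 (log2 fold change -3.22 ± 0.35 SE, adjusted p = 8.8e-06).

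Of 22 TGF-β genes, 10 fell and 7 rose (median -0.42), beside 21.9% and 20.7% of all genes. The libraries of WT line 2 lay all above those of WT line 1 for 7 of these genes and all below for 7, beside 20.5% and 20.4% of all genes. The targets Ccn2 and Ccn1 fell (log2 fold changes -1.99 and -0.99), as did the ligands Tgfb1, Tgfb2 and Inhbb (log2 fold changes -1.46, -1.11 and -1.78). Ccn2, connective tissue growth factor, had 145, 59.97, 306 and 200.1 CPM in WT line 2, against 817, 707, 877 and 427 CPM in WT line 1. Tgfb1 and the binding protein Ltbp4, which fell (log2 fold change -1.93), lie on chromosome 7, and the part of its shift was not tested. Receptor Tgfbr1 rose (log2 fold change 0.82).

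Growth factors of the FGF and receptor tyrosine kinase list rose in 12 of 30 cases and fell in 5 (median 0.29). Kitl, the ligand of the Kit receptor, averaged 131 ± 26.6 CPM in WT line 2 and 29.1 ± 14.6 CPM in WT line 1 (log2 fold change 2.17 ± 0.48 SE, adjusted p = 0.00235). Fgf10, a mesenchymal signal to epithelium, averaged 81.7 ± 11.1 CPM in WT line 2 and 19.3 ± 7.17 CPM in WT line 1 (log2 fold change 2.08 ± 0.34 SE, adjusted p = 2.9e-04). Pdgfra, a receptor that marks mesenchyme, averaged 261 ± 51.4 CPM in WT line 2 and 86.1 ± 31.7 CPM in WT line 1 (log2 fold change 1.60 ± 0.28 SE, adjusted p = 4.4e-04). Areg and Egfr, a ligand and its receptor, fell (log2 fold changes -3.60 and -1.02).

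In the Notch list 4 rose and 4 fell of 11. Hey2, a target gene, averaged 0.242 ± 0.256 CPM in WT line 2 and 13.98 ± 1.204 CPM in WT line 1 (log2 fold change -5.86 ± 0.36 SE, adjusted p = 4.8e-08). The receptors Notch1 and Notch3 fell (log2 fold changes -1.54 and -2.85), while Notch4 rose (log2 fold change 2.40). Notch3 and Notch4 averaged under 5 CPM in both lines. Another receptor, read at far higher levels in both lines, rose by less than 2-fold. Guidance cues of the semaphorin, slit and netrin list fell in 13 of 24 cases and rose in 5 (median -0.70). Ntn1, the floor-plate attractant netrin 1, had 9.33, 8.34, 9.84 and 9.37 CPM in WT line 2, against 72.1, 62.5, 101 and 67.2 CPM in WT line 1 (log2 fold change -3.03 ± 0.17 SE, adjusted p = 1.8e-08). The coreceptors split, Nrp1 falling (log2 fold change -1.72) and Nrp2 rising (log2 fold change 1.68). Slit2 and Slit3 rose (log2 fold changes 1.07 and 1.58), and their receptors Robo1 and Robo2 fell (log2 fold changes -1.18 and -3.45). Of 17 ephrins and Eph receptors, 5 rose and 6 fell. Efnb2, the ephrin of arteries and somite boundaries, had 22.3, 16.4, 34.7 and 31.7 CPM in WT line 2, against 294, 289, 257 and 281 CPM in WT line 1 (log2 fold change -3.42 ± 0.20 SE, adjusted p = 3.3e-08), and 4 adjacent tested genes on chromosome 8 from Efnb2 were each at least 2-fold lower.

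RNA of many extracellular matrix genes, collagens and small proteoglycans among them, was higher in WT line 2: 15 of 29 rose and 6 fell (median 0.78). Between 3 and 7 fell with 1 library left out, the 3 without experiment 1 of WT line 2 or experiment 3 of WT line 1. Ogn, the small leucine-rich proteoglycan osteoglycin, had 204, 282, 262 and 252 CPM in WT line 2, against 9.21, 23.4, 32.5 and 10.6 CPM in WT line 1 (log2 fold change 3.72 ± 0.45 SE, adjusted p = 2.1e-05). Aspn, asporin, its neighbour family member, had 113, 95.6, 136 and 95.4 CPM in WT line 2, against 5.31, 9.34, 17.6 and 6.19 CPM in WT line 1 (log2 fold change 3.51 ± 0.43 SE, adjusted p = 2.4e-05). Postn, periostin of periosteum and periodontal ligament, averaged 997 ± 312 CPM in WT line 2 and 184 ± 85.8 CPM in WT line 1 (log2 fold change 2.44 ± 0.44 SE, adjusted p = 5.7e-04). Col8a2 averaged 84.2 ± 43.6 CPM in WT line 2 and 10.96 ± 5.38 CPM in WT line 1 (log2 fold change 2.93 ± 0.42 SE, adjusted p = 9.4e-05), and Col6a3 and Col12a1 rose (log2 fold changes 1.57 and 0.78). Col1a2 and Col3a1, chains of fibrillar collagens, rose (log2 fold changes 0.80 and 0.91), whereas Col1a1 averaged 7461 ± 1079 CPM in WT line 2 and 5414 ± 1290.2 CPM in WT line 1 and did not pass (adjusted p = 0.0576). With the experiment number as a block Col1a1 passed at an adjusted p of 0.0046, and without experiment 1 of WT line 1 at 0.0248. Col14a1 and Col7a1 fell (log2 fold changes -4.17 and -2.94). Tnc, also on this list, fell at higher levels, with 420 CPM in WT line 2 and 904 CPM in WT line 1.

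Of 20 basement membrane genes, 7 rose and 5 fell (median 0.17), the lower calls near the 21.9% of all genes. Lama4, a laminin chain of vessels and mesenchyme, averaged 233 ± 55.6 CPM in WT line 2 and 32.1 ± 14.2 CPM in WT line 1 (log2 fold change 2.86 ± 0.36 SE, adjusted p = 2.9e-05). Lama1, the early embryonic chain, averaged 0.206 ± 0.115 CPM in WT line 2 and 10.7 ± 3.37 CPM in WT line 1 (log2 fold change -5.65 ± 0.36 SE, adjusted p = 5.9e-08). Lama2, the muscle chain, averaged 7.56 ± 3.01 CPM in WT line 2 and 80.9 ± 13.6 CPM in WT line 1 (log2 fold change -3.43 ± 0.27 SE, adjusted p = 4.7e-07). Col4a5 and Col4a6, neighbours on the X, rose (log2 fold changes 1.73 and 2.70), and Col4a1 and Col4a2 did not pass (0.06 and 0.08). Among 24 remodelling genes, 8 rose and 7 fell. Adamts9, a versican-cleaving protease, averaged 157 ± 32.5 CPM in WT line 2 and 12.8 ± 4.89 CPM in WT line 1 (log2 fold change 3.61 ± 0.29 SE, adjusted p = 5.5e-07), and Mmp13, collagenase 3, averaged 5.93 ± 1.96 CPM in WT line 2 and 0.110 ± 0.0613 CPM in WT line 1. Adamts2, Adamts5 and Timp2 fell (log2 fold changes -1.47, -1.31 and -0.70). Of 26 integrins and cadherins, 11 rose and 9 fell. Cdh6, a cadherin of kidney and neural crest, averaged 38.2 ± 24.4 CPM in WT line 2 and 1.24 ± 0.894 CPM in WT line 1 (log2 fold change 4.94 ± 0.56 SE, adjusted p = 1.1e-05), Itga8 averaged 144 ± 67.1 CPM in WT line 2 and 13.9 ± 9.43 CPM in WT line 1 (log2 fold change 3.37 ± 0.46 SE, adjusted p = 5.3e-05), and Itgb8 averaged 0.618 ± 0.336 CPM in WT line 2 and 12.5 ± 6.48 CPM in WT line 1 (log2 fold change -4.34 ± 0.48 SE, adjusted p = 8.7e-06).

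Lineage lists moved in different directions, and the differences between lists were not tested. Of 9 cartilage genes tested none rose and 5 fell (median -0.91), 3 to 5 with 1 library left out, the 3 without experiment 1 or 2 of WT line 2 or experiment 3 of WT line 1. Col2a1, the collagen of cartilage, had 0.995, 0.914, 1.05 and 0.846 CPM in WT line 2, against 72.8, 44.3, 44.7 and 23.997 CPM in WT line 1 (log2 fold change -5.60 ± 0.32 SE, adjusted p = 2.3e-08). Sox9, the factor that commits cells to cartilage, had 18.9, 25.2, 17.9 and 16.5 CPM in WT line 2, against 88.99, 69.96, 84.5 and 76.3 CPM in WT line 1 (log2 fold change -2.03 ± 0.13 SE, adjusted p = 7.3e-08). Sox5, its partner, fell (log2 fold change -3.79), and Acan, the main cartilage proteoglycan, was at 1.04 ± 0.588 CPM in WT line 2 and 1.997 ± 0.773 CPM in WT line 1 and did not pass. Of 15 bone genes 7 were tested, of which 5 rose and 2 fell (median 1.36), and 2 of those 5 are also on the face list. Sp7, osterix, averaged 3.57 ± 1.13 CPM in WT line 2 and 0.231 ± 0.0990 CPM in WT line 1 (log2 fold change 3.88 ± 0.35 SE, adjusted p = 1.6e-06), and Runx2, the master gene of bone, 108 ± 11.96 CPM in WT line 2 and 75.3 ± 8.84 CPM in WT line 1 (log2 fold change 0.52 ± 0.10 SE, adjusted p = 9.1e-04). Smpd3 and Spp1 fell (log2 fold changes -2.10 and -0.76), and Spp1 did not pass without experiment 1, 2 or 3 of WT line 2 or experiment 2 or 4 of WT line 1.

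Smooth muscle genes rose in 8 of 16 cases and fell in none (median 0.65), beside 20.7% and 21.9% of all genes, with 6 to 10 higher with 1 library left out. In addition, 1 gene fell without experiment 3 of WT line 2 and 2 with the experiment number as a block. Mylk, myosin light chain kinase, had 45.5, 31.2, 101 and 44.5 CPM in WT line 2, against 3.59, 4.67, 6.53 and 2.69 CPM in WT line 1 (log2 fold change 3.66 ± 0.36 SE, adjusted p = 3.2e-06). Myh11 and Cnn1 rose (log2 fold changes 1.74 and 1.05). Acta2 and Tagln did not pass (0.33 and 0.19). Of 8 smooth muscle and pericyte markers 5 were in the table, and besides Myh11 and Cnn1, which rose, Mcam and Cspg4 fell (log2 fold changes -2.62 and -0.67). Their sum ran from 3083 to 6618 CPM per library in WT line 2 and from 3237 to 4468 CPM in WT line 1, and the part of such cells was not tested. Tendon genes had 3 higher and 1 lower of 7, with Tnmd averaging 3.14 ± 0.974 CPM in WT line 2 and 0.190 ± 0.139 CPM in WT line 1 and the tendon factor Scx falling (log2 fold change -1.65), and 2 were lower without experiment 3 of WT line 2. Of 3 skeletal muscle genes tested, Tnnt2 and Acta1 fell (log2 fold changes -3.60 and -1.31).

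Adipogenic genes fell in 8 of 16 cases and rose in 3 (median -0.67). Ebf2, a factor of brown fat precursors, had 0 counts in WT line 2 and 1.27 ± 0.403 CPM in WT line 1. Lpl, lipoprotein lipase, had 0.124, 0.685, 1.16 and 1.13 CPM in WT line 2, against 10.8, 22.7, 11.7 and 10.9 CPM in WT line 1 (log2 fold change -4.22 ± 0.48 SE, adjusted p = 1.1e-05). Zfp423, a factor of fat precursors, averaged 6.21 ± 2.14 CPM in WT line 2 and 0.180 ± 0.149 CPM in WT line 1 (log2 fold change 5.05 ± 0.47 SE, adjusted p = 1.7e-06), the opposite direction, and Pparg rose (log2 fold change 0.96). Of the 8 that fell, Pnpla2, Dgat2 and Lipe lie on chromosome 7 and Lpl on chromosome 8, and the part of these shifts was not tested. Krt19, a keratin of simple epithelia, had 0.373, 0.114, 0.221 and 0.621 CPM in WT line 2, against 59.4, 46.7, 25.7 and 41.8 CPM in WT line 1 (log2 fold change -6.99 ± 0.42 SE, adjusted p = 3.6e-08). All 3 tested genes of the list of simple epithelial keratins and junction genes fell. Besides Krt19 these were Esrp2, a splicing factor of epithelia on chromosome 8, at 1.63 ± 0.367 CPM in WT line 2 and 8.27 ± 2.404 CPM in WT line 1 (log2 fold change -2.35 ± 0.22 SE, adjusted p = 2.1e-06), and Krt7, a keratin, at 0.732 ± 0.607 CPM in WT line 2 and 2.11 ± 0.698 CPM in WT line 1 (log2 fold change -1.51 ± 0.49 SE, adjusted p = 0.0251). The lines overlapped for Krt7, which did not pass without experiment 4 of WT line 2 or experiment 1 or 3 of WT line 1 (adjusted p up to 0.0646). Of 9 epithelial markers, Krt19 among them, 5 were in the table and the other 4, Epcam, Krt5, Cldn4 and Esrp1, were not; Krt19 was the 1 of these that reached 1 CPM in WT line 1, and all 5 were below 1 CPM in WT line 2. Neuronal markers summed to 24.96 to 47.2 CPM per library in WT line 2 and 64.1 to 129 CPM in WT line 1, with 2 of 5 below 1 CPM in each line. Markers of leukocytes, skeletal muscle, glia, and germ cells had 3 of 9, 1 of 7, 2 of 10 and 2 of 7 members in the table. In bulk RNA, fewer cells of a type and less RNA per cell cannot be told apart.

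Imprinted genes, read from 1 parental copy, included some of the largest differences. Outside the Dlk1-Dio3 region, 6 of 25 rose and 12 fell (median -0.27). Peg3, a paternally expressed zinc-finger gene, had 1.82, 1.599, 2.16 and 4.23 CPM in WT line 2, against 142, 183, 189.9 and 201 CPM in WT line 1 (log2 fold change -6.20 ± 0.30 SE, adjusted p = 6.0e-09). Usp29, beside it in the same domain of chromosome 7, had 1 count in WT line 2 and averaged 5.61 ± 0.766 CPM in WT line 1, a ratio of WT line 1 over WT line 2 of 432 (exact 95% interval 77.1 to 17112). Zdbf2, on chromosome 1, had 0, 0.0571, 0 and 0.0564 CPM in WT line 2, against 18.8, 21.5, 30.1 and 12.9 CPM in WT line 1. Its ratio of WT line 1 over WT line 2 was 817 (exact 95% interval 226 to 6753). All 3 were low in the p27-null line too, at 11.01, 0.209 and 0.0599 CPM. Snrpn, Ndn, Igf2 and H19, also on chromosome 7, fell (log2 fold changes -2.30, -1.13, -2.28 and -1.36), beside a chromosome median of -0.40, whose part was not tested. Grb10 on chromosome 11 fell (log2 fold change -1.39). Mest, Sgce and Peg10 on chromosome 6 and Plagl1 on chromosome 10 rose (log2 fold changes 1.495, 0.77, 0.72 and 1.35). In the Dlk1-Dio3 region on chromosome 12, 2 rose and 2 fell of 7. Rian, a maternally expressed RNA, fell (log2 fold change -0.77) and Dio3 rose (log2 fold change 3.45), while Dlk1 did not pass (258 ± 67.6 CPM in WT line 2 and 315 ± 87.2 CPM in WT line 1). In that region 1 gene in place of 2 fell without experiment 2 or 3 of WT line 1.

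Targets of p53 were lower in WT line 2 than in WT line 1, although both lines carried E6. Of 25 genes on this list, which includes Trp53 itself, 17 fell and 1 rose, beside 21.9% and 20.7% of all genes, with a median log2 fold change of -0.67. With 1 library left out, 15 to 17 fell and 1 rose. Ccng1, cyclin G1, had 107, 82.9, 93.2 and 107 CPM in WT line 2, against 324, 369.7, 280.2 and 383 CPM in WT line 1 (log2 fold change -1.80 ± 0.15 SE, adjusted p = 8.8e-07). Cdkn1a, the inhibitor p21, had 30.6, 21.4, 32.6 and 25.6 CPM in WT line 2, against 89.3, 61.4, 63.3 and 59.3 CPM in WT line 1 (log2 fold change -1.31 ± 0.22 SE, adjusted p = 3.7e-04). Pmaip1, the cell death protein Noxa, had 1.24, 1.03, 1.77 and 3.44 CPM in WT line 2, against 25.2, 38.5, 31.7 and 22.997 CPM in WT line 1 (log2 fold change -4.00 ± 0.32 SE, adjusted p = 4.5e-07). None of these overlapped.

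Perp, a desmosome protein induced by p53, had 0, 0.114, 0.332 and 0.564 CPM in WT line 2, against 57.97, 71.5, 72.7 and 69.3 CPM in WT line 1 (log2 fold change -8.13 ± 0.34 SE, adjusted p = 2.2e-09), and averaged 0.0599 CPM in the p27-null line. Plk2, Eda2r, Btg2, Bbc3, Trp53inp1 and Mdm2 fell (log2 fold changes -1.58, -1.67, -1.72, -1.502, -1.89 and -0.67). Gdf15, a stress cytokine, was the 1 that rose, with 5.101, 5.88, 11.3 and 3.05 CPM in WT line 2, against 2.86, 2.17, 2.44 and 1.25 CPM in WT line 1 (log2 fold change 1.52 ± 0.35 SE, adjusted p = 0.00322). Trp53, on chromosome 11, averaged 216 ± 12.3 CPM in WT line 2 and 276 ± 31.7 CPM in WT line 1 (log2 fold change -0.35 ± 0.11 SE, adjusted p = 0.0221), with an adjusted p up to 0.0721 when 1 library was left out, the 4 libraries whose removal ended the call being experiments 2 and 3 of WT line 2 and 1 and 4 of WT line 1. Fas, Sesn1 and Phlda3 did not pass, at -0.24, 0.21 and -0.18. Bbc3 and Aen lie on chromosome 7, Ccng1 on chromosome 11.

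**Figure D4:**
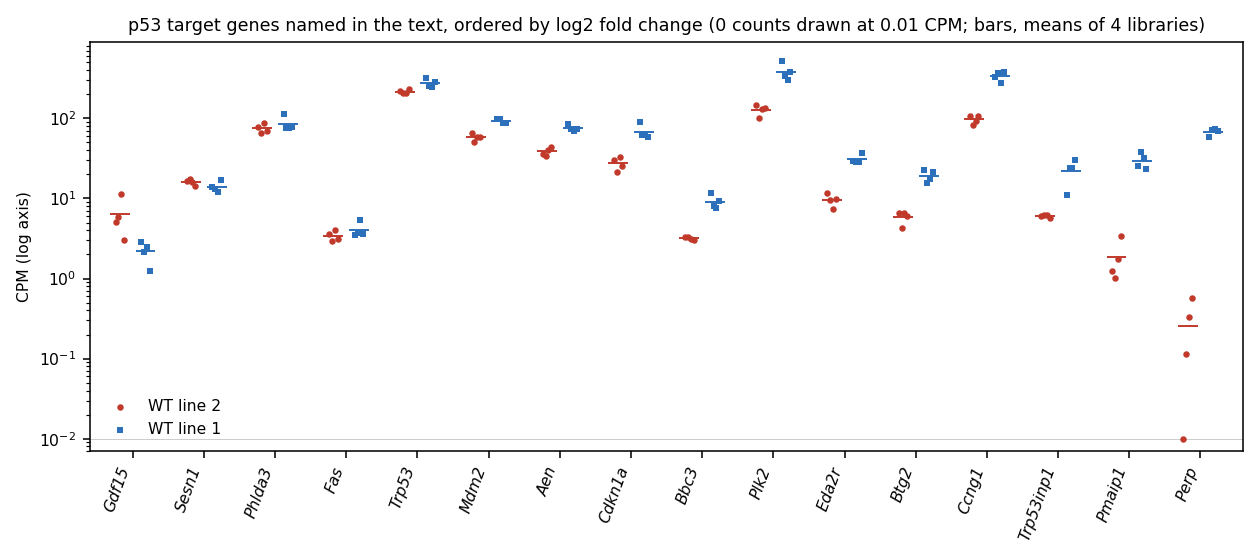
CPM of the p53 target genes named in the text and Trp53, on a log axis, 1 point per library, WT line 2 (circles) left of WT line 1 (squares), ordered by log2 fold change, bars at the mean of 4 libraries, 0 counts drawn at 0.01 CPM. Gdf15 lies higher in WT line 2 (6.33 against 2.18 CPM) and Perp at the far end lies lower (0.253 against 67.9 CPM).

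Cell cycle genes differed mostly by less than 2-fold. Of 20 CDK inhibitors and G1 cyclins, 6 rose and 3 fell, a share of 45.0% called, near the 42.6% of all genes. Cdkn2a, which encodes p16 and the p53 stabiliser Arf, averaged 224 ± 35.03 CPM in WT line 2 and 131 ± 15.8 CPM in WT line 1 (log2 fold change 0.77 ± 0.13 SE, adjusted p = 2.4e-04), and Ccnd1 and Ccnd3, D cyclins, rose (log2 fold changes 0.56 and 0.69). Rb1, the retinoblastoma protein, fell (log2 fold change -0.77) on chromosome 14, where genes were higher as a whole. Of 35 replication genes 6 rose and 12 fell, a share of 51.4% called and none by 2-fold, with 3 to 6 higher and 7 to 11 lower when 1 library was left out; 7 were lower without experiment 4 of WT line 2 and without experiment 1 or 4 of WT line 1, and 3 were higher without experiment 1 of WT line 2 or experiment 3 of WT line 1. Cdc6 fell (log2 fold change -0.75) and Cdc45 rose (log2 fold change 0.55). Of 29 mitotic genes 3 rose and 2 fell, a share of 17.2% called against 42.6% of all genes, and with the experiment number as a block 7 rose. Only 1 mitotic gene fell without experiment 1 or 2 of WT line 2 or experiment 1 of WT line 1, and 10 rose and 5 fell without experiment 1 of both WT line 1 and the p27-null line.

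Of 19 immediate early genes, 8 fell and 2 rose (median -0.26), beside 21.9% and 20.7% of all genes. Atf3, Jund and Nr4a1 fell (log2 fold changes -1.80, -1.21 and -1.01), while Jun and Fosl1 rose (log2 fold changes 0.53 and 0.51). Jund, Junb and Ier2 lie on chromosome 8, whose median was -0.29, and its part was not tested. Fos and Egr1 did not pass (-0.17 and -0.26).

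Immune genes showed a mixed picture. In the list of chemokines, cytokines and complement, 12 of 24 rose and 7 fell, the same counts with each library left out. C3, the central complement protein, had 30.02, 25.1, 27.9 and 29.8 CPM in WT line 2, against 1.09, 3.17, 6.64 and 3.999 CPM in WT line 1 (log2 fold change 2.92 ± 0.34 SE, adjusted p = 1.5e-05). C1s1 and C1ra, proteases that start the classical complement pathway, rose (log2 fold changes 3.23 and 2.11), and Ccl2 rose (log2 fold change 1.44). Cxcl12, the stromal chemokine, had 372, 422, 372 and 330.3 CPM in WT line 2, against 1331, 1297, 1575 and 1325 CPM in WT line 1 (log2 fold change -1.89 ± 0.16 SE, adjusted p = 9.0e-07). Il6 and Lif, related cytokines, fell (log2 fold changes -3.59 and -1.97). Of 25 interferon response genes, 9 rose and 2 fell, a share of 44.0% called, near the 42.6% of all genes. Among them Oasl2, Gbp2 and Xaf1 rose (log2 fold changes 2.64, 2.41 and 1.70) and the RNA sensor Ifih1 fell (log2 fold change -3.02). Of 11 genes of antigen presentation 3 rose and 4 fell. The class I gene H2-K1 averaged 5.56 ± 1.47 CPM in WT line 2 and 19.8 ± 6.53 CPM in WT line 1, its relative H2-D1 averaged 27.7 ± 7.74 CPM in WT line 2 and 66.2 ± 14.1 CPM in WT line 1, and Nlrc5, their transactivator, averaged 0.885 ± 0.367 CPM in WT line 2 and 7.31 ± 2.07 CPM in WT line 1. Tapbp and Tap2 rose (log2 fold changes 1.09 and 1.18). Near-identical class I genes may share reads, so these values are uncertain.

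Antioxidant and metabolic lists differed mostly by less than 2-fold. Beside the 42.6% of all genes called, the share was 42.3% for cholesterol genes and 48.1% for glycolytic and hypoxia genes. It was 34.6% for oxidative phosphorylation, 20% for ATF4 targets and 19.4% for ribosomal protein genes. Of 26 NRF2 and antioxidant genes 14 rose and 5 fell (median 0.38). Nqo1, a quinone reductase, had 43.8, 66.1, 60.1 and 47.6 CPM in WT line 2, against 10.2, 17.7, 17.8 and 10.1 CPM in WT line 1 (log2 fold change 1.96 ± 0.22 SE, adjusted p = 8.7e-06). Gsta4, Gstm1 and Gclm, of glutathione metabolism, rose (log2 fold changes 2.59, 1.90 and 1.01), and Sod3 and Mgst1 fell (log2 fold changes -4.12 and -3.74) at levels of at most 1.71 CPM. Of 26 cholesterol genes 10 rose, 5 to 12 with 1 library left out (5 without experiment 2 of WT line 2, 6 without experiment 1 of WT line 2 or experiment 3 of WT line 1), and 1 fell. Of 27 glycolytic and hypoxia genes 9 rose and 4 fell, with Pdk1, a brake on pyruvate use, at 1.32 and Ndrg1 at -1.21. Of 26 genes of oxidative phosphorylation 8 rose and 1 fell, 16 rose with the experiment number as a block, and 13 rose without experiment 1 of WT line 1. The 1 that fell was retained without experiment 4 of WT line 2 or experiment 3 of WT line 1 and lost without any other library. Of 25 ATF4 target genes 3 rose and 2 fell, 6 rose without experiment 1 of WT line 1 and with the block, and 9 fell without experiment 3 of WT line 2. Of 31 ribosomal protein genes 2 rose and 4 fell. The 4 lower ones, Rpl18, Rps3 and Rps9 among them, all lie on chromosome 7. None fell without experiment 2 or 4 of WT line 2 or experiment 1 of WT line 1, 2 fell without experiment 4 of WT line 1, and 10 fell without experiment 3 of WT line 1 and with the block.

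**Figure D5:**
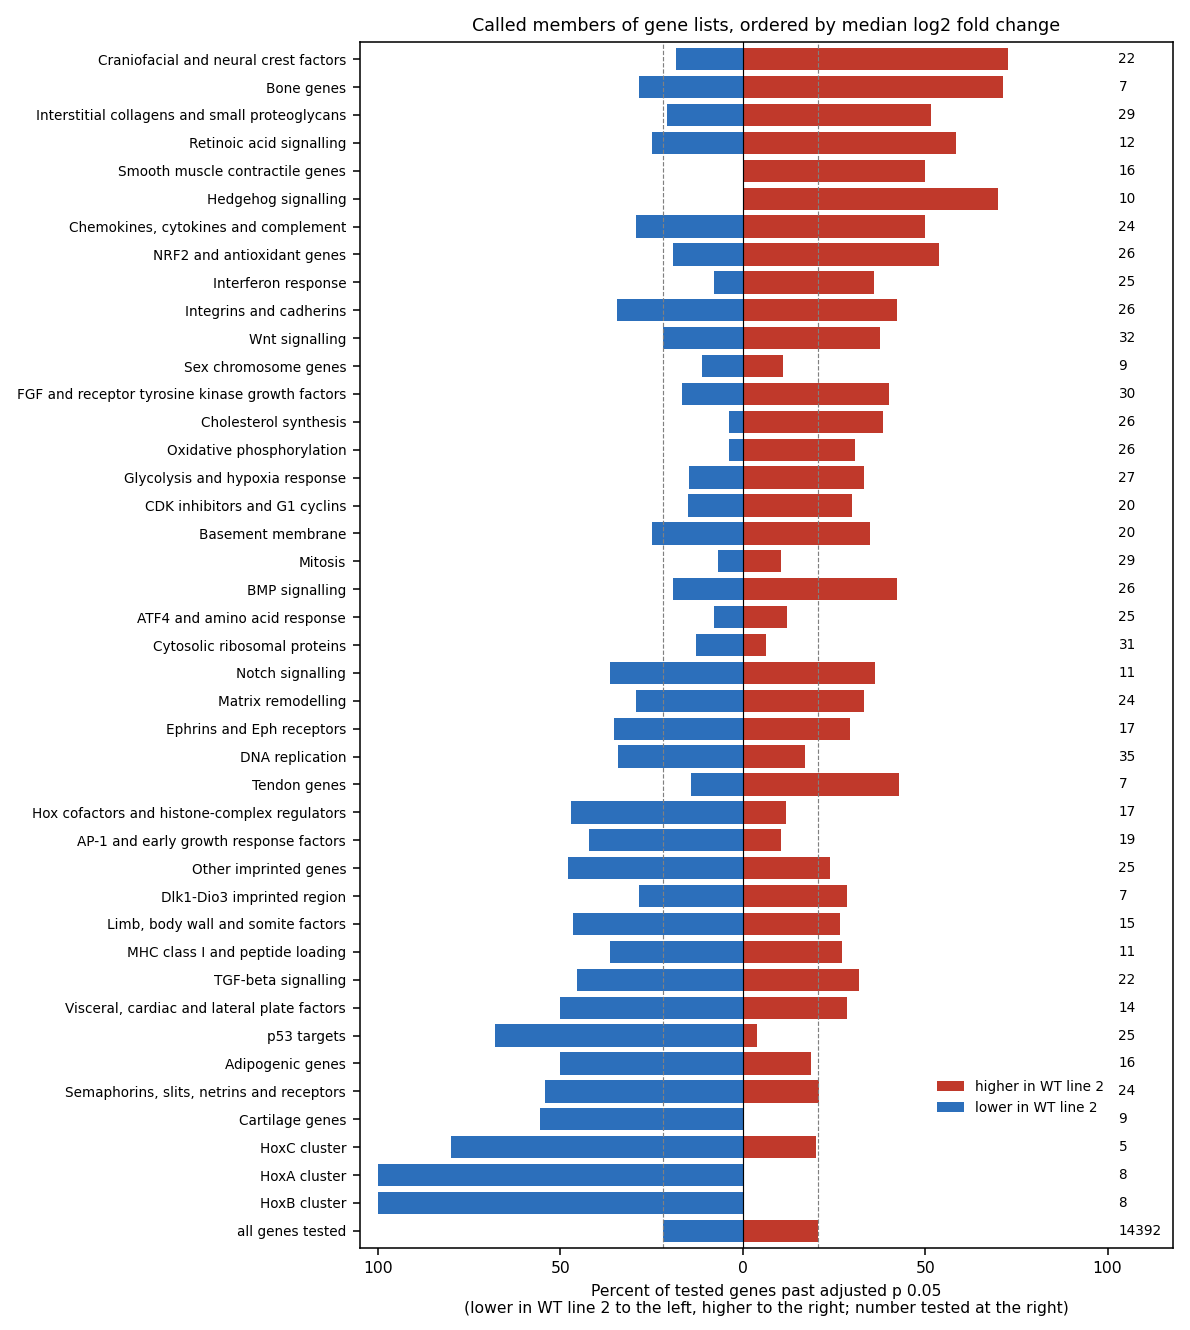
Percent of the tested members of each gene list with at least 5 tested genes that were lower (bars to the left) or higher (bars to the right) in WT line 2 than in WT line 1 at an adjusted p of 0.05, ordered by median log2 fold change, with the number tested at the right and dashed lines at the shares over all 14392 genes (21.9% lower, 20.7% higher). The HoxA and HoxB clusters lie wholly to the left and face and neural crest factors mostly to the right.

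By kind of transcript, 46.7% of protein-coding genes passed, 32.6% of long non-coding RNAs and 13.7% of processed pseudogenes. Away from the Hox clusters and chromosome 7, further runs of at least 4 adjacent tested genes that moved 2-fold the same way included Scara3, Clu, Ephx2 and Ptk2b on chromosome 14 (higher, median 2.05), Serpinb1a, Serpinb6b, Serpinb9 and Serpinb9b on chromosome 13 (lower, median -2.54) and Slit2 with 5 neighbouring transcripts on chromosome 5 (higher, median 1.34). Clu, the secreted chaperone clusterin, had 16.9, 17.9, 25.1 and 12.6 CPM in WT line 2, against 4.06, 6.56, 12.1 and 3.25 CPM in WT line 1 (log2 fold change 1.48 ± 0.36 SE, adjusted p = 0.00442). Genes of these runs were named after their values were seen. In all there were 19 such runs, and members of a run can share reads or annotation.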

How the data were processed

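Libraries of total RNA were sequenced as paired reads of 150 bases. Per the series' design text and the submitters' processing notes, read quality was checked with FastQC, and reads were aligned to GRCm39 and counted on GENCODE genes with STAR 2.5.4a. The annotation release, the strand setting and the filter that left 15207 rows were not given in the sources used here. Raw counts per gene were deposited, headed as raw data per the file headers. The 24 other columns of per-sample values, log and linear CPM, were not used.

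Of the rows, 51 named no gene and held 2.04 to 5.25% of a library's counts; they were left out. Coordinates came from GENCODE vM39 on GRCm39, where 15153 of 15156 gene IDs matched. Libraries were grouped by title. The main test was edgeR 4.0.16 quasi-likelihood (R 4.3.3) with TMM scaling and filterByExpr on all 12 libraries, so that the 3 lines share an estimate of spread. The contrast was WT line 2 minus WT line 1, with Benjamini-Hochberg adjustment over 14392 genes at 0.05. The fit was tested on simulated data. SE is the fold change divided by the square root of F. The prior count of 2 entered log2 CPM only. Fitted fold changes of genes near 0 counts depend on the prior count of the fit, which was left at edgeR's default. For a line at 0 counts a bound against 3 counts over its 4 libraries is given. For 1 to 3 counts a ratio is given with an exact interval that covers counting error only.

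The same experiment numbers recur in each line. Deviations from line means correlated between same-numbered libraries of WT line 2 and WT line 1 at r = 0.297, 0.109, 0.202 and 0.147 across genes. Of the 4 libraries of WT line 2, 2 correlated best with the WT line 1 library of their own number. Whether the numbers pair the libraries is thus not settled, and the main fit did not use them. A fit with the number as a replicate block was an alternative. The others were leaving the low-count filter out, DESeq2 1.42.0, DESeq2 size factors within edgeR, the 8 wild-type libraries alone, limma-voom 3.58.1, glmTreat above 1.5-fold and leaving out libraries.

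Named genes were, among genes with an official symbol, the 12 largest changes and the 8 most abundant genes each way (per kb of exon, at least 2-fold), with a mean of at least 5 CPM and lines that did not overlap, up to 5 top members of each of 45 gene lists, all Hox and position factors, cell type markers, and other list members where their group is described. Some genes that this rule names are not reported here; list counts and medians keep all members. Members and lists were chosen with earlier results of these data known.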

Additional observations from a re-analysis of the deposited data

Results flagged for a closer look

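Within each line, 1 library at times stood apart from the other three. CPM were put on a log2 scale after a small constant was added. The gap between the highest or lowest of 4 libraries and its nearest neighbour was then divided by the whole range. Libraries past the 95% critical value of Dixon are given here with that ratio, beside their values in CPM. They came to 26 of 520 groups checked, of genes named here with at least 20 counts, and chance sets apart about 1 in 20.

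Crabp1 lay at 686 CPM in experiment 1 of WT line 2, above the 451 to 484 CPM of the others (ratio 0.831). Col14a1 lay at 0.0415 CPM in experiment 1 of WT line 2, below the 0.332 to 0.400 CPM of the others (ratio 0.884). Cdkn1b lay at 119.99 CPM in experiment 2 of WT line 2, above the 88.6 to 92.9 CPM of the others (ratio 0.845). Acan lay at 0.171 CPM in experiment 2 of WT line 2, below the 1.203 to 1.44 CPM of the others (ratio 0.904). Lif was below its other libraries there, at 5.997 CPM against 9.46 to 10.01 CPM (ratio 0.889). AI606473 lay at 26.3 CPM in experiment 3 of WT line 2, above the 23.2 to 23.5 CPM of the others (ratio 0.908). Bmp4 was above its other libraries there, at 118.3 CPM against 70.1 to 74.99 CPM (ratio 0.871). Col1a1 was above its other libraries there, at 9066 CPM against 6758 to 7094 CPM (ratio 0.835). Ltbp2 was above its other libraries there, at 1518 CPM against 781 to 869 CPM (ratio 0.840). Ptch1 lay at 36.3 CPM in experiment 3 of WT line 2, below the 40.9 to 41.5 CPM of the others (ratio 0.902).

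Cdkn1a lay at 89.3 CPM in experiment 1 of WT line 1, above the 59.3 to 63.3 CPM of the others (ratio 0.842). Gli2 was above its other libraries there, at 49.5 CPM against 36.7 to 38.4 CPM (ratio 0.851). Phlda3 was above its other libraries there, at 113 CPM against 75.7 to 77.3 CPM (ratio 0.948). Prrx1 lay at 354 CPM in experiment 1 of WT line 1, below the 524 to 566 CPM of the others (ratio 0.833). Xist was below its other libraries there, at 351 CPM against 771 to 900.01 CPM (ratio 0.835). Hdnr lay at 3.67 CPM in experiment 2 of WT line 1, above the 2.13 to 2.34 CPM of the others (ratio 0.833). Lpl was above its other libraries there, at 22.7 CPM against 10.8 to 11.7 CPM (ratio 0.891). Snrpn was above its other libraries there, at 4.39 CPM against 3.98 to 4.01 CPM (ratio 0.942). Hoxb4 lay at 16.5 CPM in experiment 2 of WT line 1, below the 18.4 to 18.8 CPM of the others (ratio 0.835). Cxcl12 lay at 1575 CPM in experiment 3 of WT line 1, above the 1297 to 1331 CPM of the others (ratio 0.866). Fas was above its other libraries there, at 5.37 CPM against 3.54 to 3.73 CPM (ratio 0.877). Hoxb5 was above its other libraries there, at 4.83 CPM against 4.06 to 4.17 CPM (ratio 0.845). Eda2r lay at 36.7 CPM in experiment 4 of WT line 1, above the 28.6 to 29.04 CPM of the others (ratio 0.936). Hoxa9 lay at 0.375 CPM in experiment 4 of WT line 1, below the 0.744 to 0.834 CPM of the others (ratio 0.850). Hoxb8 was below its other libraries there, at 10.9 CPM against 13.5 to 13.7 CPM (ratio 0.944). Skap1 was below its other libraries there, at 1.4998 CPM against 2.82 to 2.97 CPM (ratio 0.923).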

How the results depend on the processing

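The count of 6133 genes was 6375 with DESeq2, 6107 with its size factors, 6202 without a filter, 6156 with the 8 wild-type libraries alone and 6189 with limma-voom. With the experiment number as a replicate block it was 7259, and 6126 of the main calls were among them with the same sign. Beside the results given, the block changed no other call among the genes named. Testing for a change above 1.5-fold with glmTreat left 1983 genes, 768 higher and 1215 lower, so 38.7% of calls were higher in place of 48.6%, and 255 list members in place of 482; fewer genes can pass that test by its construction. Leaving out 1 library gave 5342 to 6013 genes (2500 to 2904 higher, 2779 to 3109 lower) and 441 to 482 list members. The median spread was 0.137 to 0.158 in WT line 2 and 0.142 to 0.206 in WT line 1. Without experiment 1 of WT line 1 and the p27-null line 7216 genes passed.

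Chromosomes that passed were 15 of 20 with DESeq2 size factors, 13 with genes of at least 5 CPM and 0 with genes not called between the lines, which removes the larger differences by construction. With swaps within pairs, the experiment number as a replicate block, it was 0, as no p below 0.125 can be had; this alternative was chosen after seeing the data. Libraries were not left out for chromosome medians, as 3 against 4 libraries give fewer splits.

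Of 270 genes named that passed, 263 kept the call without each library in turn. The 7 others were Pax9, Trp53, Spp1, Krt7, Rpl18, Rps3 and Rps9, and Rps9 also lost it with limma-voom (adjusted p = 0.0527) and with the wild-type libraries alone (0.0538). Directions turned only for values that did not pass. With 1 library left out, log2 fold changes ran from -0.0252 to 0.140 for Cdkn1b, -0.108 to 0.216 for Col4a1, -0.0898 to 0.279 for Col4a2, -0.0066 to 0.142 for Gli2, -0.165 to 0.557 for Vwf and -0.187 to 0.176 for Xist, which had -0.173 without experiment 1 of WT line 1 and of the p27-null line. Chromosome 13 had a difference of 0.0031 over genes not called, and chromosome 19 of 0.00114 over genes of at least 5 CPM. The cause was not tested. Depth limits genes under about 1 CPM, where counts per library are few.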
